A study of Mus musculus with 12 samples.

Results

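The 7 genes described here encode the beta subunits of the sodium pump (Atp1b1, Atp1b2 and Atp1b3) and the exchangers of the Slc8 family (Slc8a1, Slc8a2, Slc8a3 and Slc8b1), and they were taken by symbol from the 48709 genes of the deposited tables. RNA was sequenced from brain astrocytes of C57BL/6 mice aged 90 to 120 days, selected by the surface antigen ACSA-2, 24 h after tMCAO, a stroke model in which the middle cerebral artery of 1 hemisphere is blocked and later reopened. All 6 mice carried 1 copy of Gfap-CreERT2, a tamoxifen-dependent Cre recombinase driven by the Gfap promoter, and floxed alleles that Cre can delete. Mice 296, 297 and 474, labelled WT, received corn oil, and mice 295, 298 and 300, labelled KO, were given tamoxifen, and effects of tamoxifen itself and of the deletion cannot be told apart. KO and WT are used as labels only, since no measure of the deletion is reported here. Each mouse gave 1 library from the occluded (ipsilateral) and 1 from the opposite (contralateral) hemisphere, which makes 4 groups of 3 libraries.

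The sodium pump exports sodium from the cell and imports potassium at the cost of ATP. Its catalytic alpha subunit needs a beta subunit to fold and to reach the plasma membrane. The exchangers NCX1, NCX2 and NCX3 (Slc8a1, Slc8a2 and Slc8a3) use the sodium gradient that the pump builds to carry calcium out of the cell and can run in reverse when sodium accumulates, while NCLX (Slc8b1) carries calcium out of mitochondria in exchange for sodium. In astrocytes these proteins handle the sodium that enters with glutamate and other transported substrates. Atp1b2, the adhesion molecule on glia, also carries the epitope that the ACSA-2 antibody binds, so the cells were selected by the product of one of the genes described. What that selection did to the Atp1b2 level was not tested.

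Libraries held 11187723 to 15780600 counts, and all 7 genes were among the 15571 genes tested. Levels between libraries are given in CPM, which are counts scaled to library size by TMM, and levels between genes in TPM, which also take account of gene length. In bulk RNA, fewer cells of a type and less RNA per cell cannot be told apart. All 12 astrocyte markers examined (among them Aqp4, Aldh1l1 and Slc1a2) were detected in every library, and so were all 9 oligodendrocyte markers (such as Mbp and Mog). The astrocyte markers summed to 16818 to 21751 CPM in WT contralateral, 9683 to 10893 in WT ipsilateral, 22054 to 26503 in KO contralateral and 16792 to 25944 in KO ipsilateral libraries. The oligodendrocyte markers summed to 12163 to 14133, 9659 to 14751, 3997 to 5608 and 6699 to 20857 CPM in the same order. Mouse 296 had 4 and 8 counts of Xist and 2733 and 2917 counts of Y-linked genes, a male pattern, while the other 10 libraries had at least 9140 counts of Xist. The 12-gene neuron list summed to only 211 to 343 CPM.

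Per unit of length, Atp1b2 was by far the most abundant of the 7 genes. Its TPM averaged 2043 ± 351 (SD, n = 3 here and below) in WT contralateral, 1206 ± 349 in WT ipsilateral, 3072 ± 155 in KO contralateral and 2294 ± 576 in KO ipsilateral libraries. Atp1b3 came next, with means of 306, 389, 213 and 274 TPM in the same order, and Atp1b1 followed with 178, 130, 181 and 152 TPM. The library ranges of the 3 beta subunits did not overlap within any group. Slc8b1 was the most abundant exchanger at 48.5, 35.4, 86.0 and 61.4 TPM, ahead of Slc8a1 at 25.9, 28.1, 16.7 and 16.8, Slc8a3 at 9.62, 10.9, 4.13 and 3.34, and Slc8a2 at 2.76, 2.79, 2.84 and 2.99 TPM. Slc8b1 and Slc8a1 overlapped in both WT groups, and Slc8a3 and Slc8a2 overlapped in both KO groups. The deposited values of Slc8a1 imply a length of 2934 bases, against 18807 bases of annotated exons, a ratio of 6.41. With the longer length, which was chosen after seeing the data, Slc8a1 would stand below Slc8a3 in every group mean.

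The beta subunit genes lie on different chromosomes of GRCm38 (mm10). Atp1b1 (ENSMUSG00000026576) spans chr1:164437109-164458355, Atp1b2 (ENSMUSG00000041329) chr11:69599736-69605942 and Atp1b3 (ENSMUSG00000032412) chr9:96332655-96364442, all on the minus strand. Atp1b1 overlaps Nme7 on the other strand, and the strand of counting is not given in the sources used here. Of the exchangers, Slc8a1 (ENSMUSG00000054640) spans chr17:81373105-81738377, Slc8a3 (ENSMUSG00000079055) chr12:81197915-81333180, Slc8a2 (ENSMUSG00000030376) chr7:16129826-16161063 and Slc8b1 (ENSMUSG00000032754) chr5:120511168-120534024. Slc8a1 overlaps AC122399.1 and Gm11096, and Slc8a3 overlaps Gm3693, on the other strand.

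The RefSeq promoter table (GRCm38.p6) held 5 of the 7 genes, all but Atp1b2 and Slc8b1. The 250 bases upstream of the start are shown for Atp1b1, which fell on the occluded side of WT mice, Atp1b3, which rose there in KO mice, and Slc8a3, which had the lowest log2 fold change between genotypes. All 3 are printed on the minus strand, 5′ to 3′, with GC boxes (GGGCGG on either strand) in capitals.
Atp1b1: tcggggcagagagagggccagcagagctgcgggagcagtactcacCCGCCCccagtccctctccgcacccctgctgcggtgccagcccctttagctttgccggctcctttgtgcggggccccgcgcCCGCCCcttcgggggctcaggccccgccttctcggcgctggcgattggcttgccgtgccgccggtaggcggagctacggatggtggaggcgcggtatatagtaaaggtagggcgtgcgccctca
Atp1b3: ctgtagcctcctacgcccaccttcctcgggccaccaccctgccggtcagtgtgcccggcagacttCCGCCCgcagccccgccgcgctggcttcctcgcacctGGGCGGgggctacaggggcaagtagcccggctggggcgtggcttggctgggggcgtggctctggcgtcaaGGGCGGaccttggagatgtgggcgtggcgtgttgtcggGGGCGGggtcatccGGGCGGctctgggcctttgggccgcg
Slc8a3: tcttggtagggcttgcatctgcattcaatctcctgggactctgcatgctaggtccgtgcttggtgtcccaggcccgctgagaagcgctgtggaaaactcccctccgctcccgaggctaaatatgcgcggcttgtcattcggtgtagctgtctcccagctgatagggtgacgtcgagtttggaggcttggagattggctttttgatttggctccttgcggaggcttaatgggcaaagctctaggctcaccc
These windows are chr1:164458356-164458605 for Atp1b1, chr9:96364432-96364681 for the first of 2 Atp1b3 entries and chr12:81333181-81333430 for Slc8a3. The Atp1b3 window shown held 5 GC boxes and 24 CpG dinucleotides, and the Atp1b1 window held 2 GC boxes and 24 CpG. The window of the other Atp1b3 entry, chr9:96363716-96363965, is not shown and held 0 GC boxes and 35 CpG. The Slc8a3 window held 0 GC boxes and 11 CpG, and its GC content was 56%, against 70.4% and 73.6% for Atp1b1 and Atp1b3. A CCAAT sequence occurred 1 time in Atp1b1 and 1 time in Slc8a3, and TATAAA occurred in none of the 3 windows. Of all 32851 windows of 250 bases in the table, 32.7% held a GC box, 33.8% CCAAT and 12.4% TATAAA on either strand. These matches describe letters and not sites in use.

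**Figure D1:**
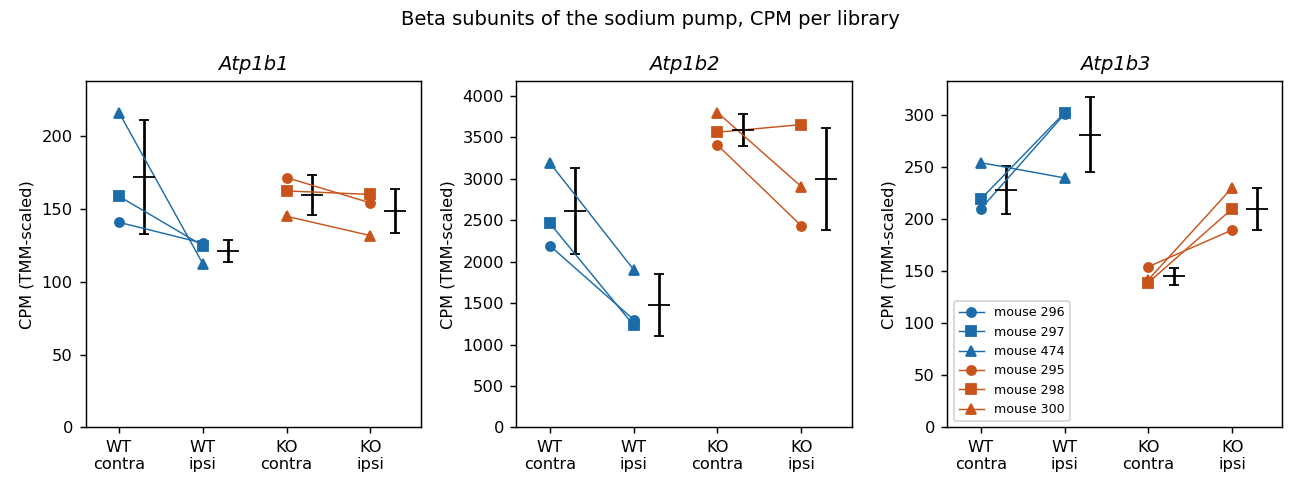
CPM (TMM-scaled counts) of Atp1b1, Atp1b2 and Atp1b3 in each of the 12 libraries, with lines joining the 2 libraries of a mouse and black bars for the mean ± SD of 3 libraries. Atp1b1 was lower on the ipsilateral side in all 6 mice, and Atp1b3 was higher on that side in 5 of 6.

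The first comparison asked how astrocytes of the occluded hemisphere differed from those of the opposite hemisphere in WT mice. Atp1b1 and Atp1b2 fell, the other 5 genes did not pass the test, and no member rose. Atp1b2 stood at 2191, 2460 and 3189 CPM in the contralateral libraries of mice 296, 297 and 474 and at 1299, 1230 and 1902 CPM in their ipsilateral ones. Every ipsilateral library was below every contralateral one, and the log2 fold change was -0.82 ± 0.22 (SE, edgeR quasi-likelihood test, adjusted p = 0.0246). Atp1b1 stood at 141, 159 and 216 CPM contralaterally and 126, 125 and 112 CPM ipsilaterally. These groups did not overlap either, with a log2 fold change of -0.50 ± 0.16 (edgeR, adjusted p = 0.0470). Of all genes tested 19.2% passed in this comparison, 9.61% higher and 9.54% lower, so 2 of 7 members is near the background. With the mouse as a block the 2982 genes that passed became 4641, and the same 2 members passed. Likewise the 2 groups did not overlap for 2 of the 7 members and for 34.0% of all genes. The median log2 fold change of the 7 members was -0.03, and that of all genes -0.06.

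Atp1b3, a beta subunit found in many cell types, did not follow the other two in WT mice. It stood at 210, 219 and 254 CPM contralaterally and 301, 302 and 239.5 CPM ipsilaterally in mice 296, 297 and 474. By CPM mouse 474 thus had less on the ipsilateral side while mice 296 and 297 had more. In TPM mouse 474 also had more there (328 contralaterally and 347 ipsilaterally). The log2 fold change of 0.30 ± 0.14 did not pass (edgeR, adjusted p = 0.143). Slc8b1 fell short of the threshold too, at -0.51 ± 0.20 (adjusted p = 0.0887). It passed without the contralateral library of mouse 296 (adjusted p = 0.0342) or without that mouse (0.0285). It shrank to -0.16 without the contralateral library of mouse 474 (adjusted p = 0.460) and to -0.18 without that mouse (0.493). For the plasma membrane exchangers the log2 fold changes were 0.09 ± 0.30 for Slc8a1, -0.03 ± 0.29 for Slc8a2 and 0.14 ± 0.36 for Slc8a3, each within its error of 0.

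Both WT calls depended on single libraries. For Atp1b2 the adjusted p rose to between 0.0521 and 0.160 without the ipsilateral library of mouse 296 or 297, the contralateral library of mouse 297 or 474, or mouse 296 or 297 as a whole, with log2 fold changes of -0.87 to -0.61. For Atp1b1 it rose to between 0.0730 and 0.322 without any 1 WT ipsilateral library, without mouse 297 or 474, or without the contralateral library of either, and the log2 fold change shrank to -0.27 without the contralateral library of mouse 474 and -0.25 without that mouse. In a fit of only the 2 groups compared neither passed (adjusted p = 0.0860 for Atp1b2 and 0.141 for Atp1b1). Atp1b2 moved beside the astrocyte markers. It equalled 13.0 to 14.7% of their summed CPM in WT contralateral and 12.7 to 17.5% in WT ipsilateral libraries, and 9 of the 12 markers passed as lower. Beside both falls, the microglial markers summed to 498 to 657 CPM contralaterally and 1035 to 1605 CPM ipsilaterally (1 of 10 passing as higher), and the 8 mural markers to 1165 to 1347 and 660 to 958 CPM (4 of 8 passing as lower). These ratios were chosen after the values were seen, and the part of the cell mixture in the result was not tested.

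In KO mice the same comparison gave a call for Atp1b3 only, which rose. It stood at 154, 139 and 142 CPM in the contralateral libraries of mice 295, 298 and 300 and at 190, 209.9 and 230 CPM in the ipsilateral ones. The groups did not overlap, all 3 mice moved up, and the log2 fold change was 0.53 ± 0.14 (edgeR, adjusted p = 0.0424). In this comparison 6.29% of all genes passed, 5.45% higher and 0.841% lower, 979 genes in all and 2498 with the mouse as a block, where Atp1b3 again passed (adjusted p = 0.0428). The call was lost without any 1 KO contralateral library, the ipsilateral library of mouse 295 or 300, or any 1 of the 3 mice, with adjusted p of 0.0710 to 0.382 and log2 fold changes of 0.43 to 0.65. It was also lost with upper-quartile scaling (adjusted p = 0.0548), without the filter (0.0530) and on log2(TPM + 1) (0.0903). Oligodendrocyte markers were also higher in sum on the ipsilateral side of each KO mouse, most so in mouse 300 (3997 against 20857 CPM). Of these 9 markers 2 passed as higher. Atp1b3 equalled 2.7515 to 3.5503% of their summed CPM in KO contralateral and 1.1035 to 3.1338% in KO ipsilateral libraries, which overlapped. From contralateral to ipsilateral this percentage fell in mice 295 and 300 and rose in mouse 298. The microglial markers summed to 1389, 850 and 826 CPM contralaterally in mice 295, 298 and 300. Ipsilaterally they summed to 2643, 1699 and 401 CPM, with 0 of 10 passing. The part of the oligodendrocyte and microglial markers in the result was not tested.

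Atp1b1 and Atp1b2 did not pass in KO mice, with log2 fold changes of -0.10 ± 0.16 (edgeR, adjusted p = 0.711) and -0.26 ± 0.22 (adjusted p = 0.472). Atp1b1 stood at 171, 162 and 145 CPM contralaterally and 154, 160 and 132 CPM ipsilaterally in mice 295, 298 and 300, a small decrease in each mouse. Atp1b2 stood at 3406, 3561 and 3798 CPM contralaterally and 2433, 3652 and 2905 CPM ipsilaterally. By CPM mouse 298 had slightly more on the ipsilateral side, and mice 295 and 300 had less. In TPM mouse 298 had less there too (3072 contralaterally and 2958 ipsilaterally). Slc8b1 stood at 88.0, 86.5 and 81.0 CPM contralaterally and 64.8, 69.3 and 70.7 CPM ipsilaterally. Its groups did not overlap, yet its log2 fold change of -0.32 ± 0.19 did not pass (edgeR, adjusted p = 0.309). The groups were apart for 2 of 7 members, Atp1b3 and Slc8b1, and for 38.8% of all genes. Slc8a1, Slc8a2 and Slc8a3 changed by 0.14 ± 0.30, 0.23 ± 0.29 and -0.14 ± 0.37 on the log2 scale, and none passed.

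Whether the side effect differed between genotypes was tested by the interaction, the KO side effect minus the WT one. No member passed, and over all genes 0% did by edgeR, while 763 genes but no member had an unadjusted p up to 0.05. DESeq2 called 14 genes and a limma-trend fit of log2(TPM + 0.1) called 2, none of them a member. The interaction was 0.56 ± 0.31 for Atp1b2 and 0.40 ± 0.23 for Atp1b1 on the log2 scale, and 0.23 ± 0.19 for Atp1b3. The falls of Atp1b1 and Atp1b2 in WT mice are therefore not shown to differ from the smaller values in KO mice. The adjusted p of the members was 0.948 to 0.995. For the exchangers the interaction lay between -0.28 ± 0.52 (Slc8a3) and 0.26 ± 0.41 (Slc8a2).

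Averaged over the WT and KO mice, the ipsilateral side had more Atp1b3 and less Atp1b2 and Slc8b1. Atp1b3 rose by 0.42 ± 0.10 on the log2 scale (edgeR, adjusted p = 0.00755) and was higher by CPM in 5 of 6 mice. Atp1b2 changed by -0.54 ± 0.16 (adjusted p = 0.0213) and Slc8b1 by -0.42 ± 0.14 (adjusted p = 0.0375), each lower by CPM in 5 of 6 mice. In TPM Atp1b3 was higher in mouse 474 as well, and Atp1b2 lower in mouse 298. Atp1b1 was lower in 6 of 6 mice but fell short of the threshold, at -0.30 ± 0.11 (adjusted p = 0.0580). It passed without mouse 296 (adjusted p = 0.0286), without the contralateral library of that mouse (0.0214) and on log2(TPM + 1) (0.0495). These were 3 of 26 alternative fits, whose values ran from -0.37 to -0.18 at adjusted p up to 0.212. Of all genes 33.2% passed in this comparison, 17.1% higher and 16.1% lower, against 3 of 7 members. Slc8a1, Slc8a2 and Slc8a3 changed by 0.11 ± 0.21, 0.10 ± 0.21 and 0.00 ± 0.27. Cell-type markers passed in this comparison as well. Of 12 astrocyte markers 7 were lower and 1 higher, and 5 of 8 mural and 4 of 8 ependymal markers were lower and 0 higher. Of 10 microglial markers 5 were higher, and of 9 oligodendrocyte markers 3, with 0 lower in either list. The part of the cell mixture in the calls over the 6 mice was not tested.

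The Atp1b3 rise over the 6 mice was the call that depended least on a single library. It was lost in 1 of 18 fits that left out a library or a mouse, that without mouse 297 (0.38, adjusted p = 0.0518). The Atp1b2 fall was lost without the ipsilateral library of mouse 296, 297, 295 or 300, the contralateral library of mouse 474, or mouse 297, 295 or 300, with adjusted p of 0.0527 to 0.106 and log2 fold changes of -0.52 to -0.45. The Slc8b1 fall held in 4 of 18 such fits and was lost without the filter on low counts (-0.40, adjusted p = 0.0538). It was lost without mouse 297, 474, 295, 298 or 300, without any 1 KO library, or without the ipsilateral library of mouse 297 or either library of mouse 474, at adjusted p of 0.0563 to 0.140, and it shrank to -0.25 without mouse 474 and -0.26 without its contralateral library.

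**Figure D2:**
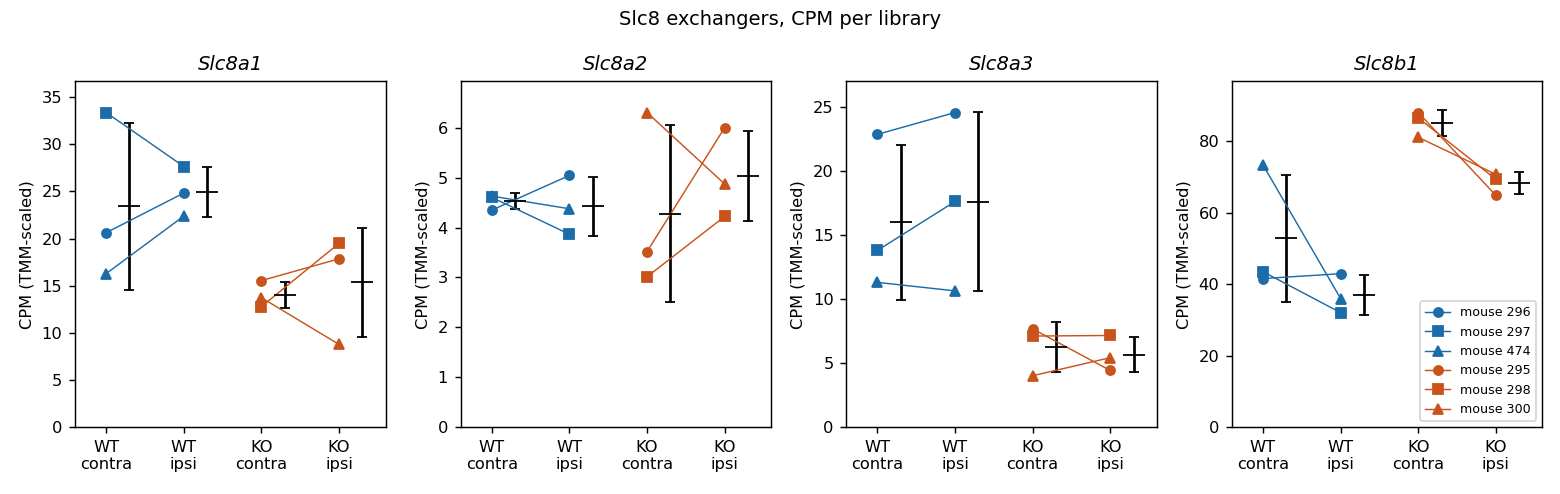
CPM (TMM-scaled counts) of the 4 Slc8 exchanger genes in each of the 12 libraries, with lines joining the 2 libraries of a mouse and black bars for the mean ± SD of 3 libraries. Slc8a3 stayed below 8 CPM in all KO libraries and above 10 CPM in all WT libraries, and Slc8b1 showed the opposite order on either side.

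Between libraries labelled KO and WT, the clearest differences on the ipsilateral side were more Atp1b2 and Slc8b1 and less Slc8a3 in KO. Slc8b1, the mitochondrial exchanger, stood at 42.9, 32.1 and 36.0 CPM in the WT ipsilateral libraries of mice 296, 297 and 474 and at 64.8, 69.3 and 70.7 CPM in the KO ones of mice 295, 298 and 300. All KO libraries were above all WT ones, with a log2 fold change of 0.88 ± 0.20 (edgeR, adjusted p = 0.0236). Slc8a3, the exchanger NCX3, stood at 24.6, 17.6 and 10.7 CPM in WT and 4.44, 7.18 and 5.44 CPM in KO. The groups were apart despite the wide WT spread, and the log2 fold change was -1.63 ± 0.37 (edgeR, adjusted p = 0.0261). Atp1b2, at 1299, 1230 and 1902 CPM in WT and 2433, 3652 and 2905 CPM in KO, differed by 1.02 ± 0.22 (edgeR, adjusted p = 0.0222). Of all genes 6.31% passed here, 4.33% higher and 1.98% lower, against 2 members higher and 1 lower. The groups did not overlap for 6 of 7 members, all but Slc8a2, and for 23.9% of all genes. The median log2 fold change was 0.18 over the members and 0.02 over all genes.

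The other members did not pass on the ipsilateral side. Atp1b3 was lower in each KO than in each WT library, at -0.42 ± 0.14 (edgeR, adjusted p = 0.0965), and passed without mouse 474 (adjusted p = 0.0405), by DESeq2 (0.0280) and on log2(TPM + 1) (0.0360). It passed in 4 of 20 alternative fits, whose values ran from -0.52 to -0.34 at adjusted p up to 0.358. Slc8a1, the exchanger NCX1, stood at 24.8, 27.6 and 22.4 CPM in WT and 17.8, 19.5 and 8.79 CPM in KO, apart but with a log2 fold change of -0.69 ± 0.30 that did not pass (adjusted p = 0.202). Atp1b1 differed by 0.29 ± 0.16 (adjusted p = 0.322). Slc8a2, the exchanger NCX2, stood at 5.04, 3.87 and 4.38 CPM in WT and 6.00, 4.22 and 4.87 CPM in KO, which overlapped, and differed by 0.18 ± 0.29 (adjusted p = 0.769).

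Each ipsilateral genotype call was lost when some library was left out. For Slc8b1 this held without the ipsilateral library of mouse 297, 295, 298 or 300 or without any of those mice, at adjusted p of 0.0546 to 0.130 and log2 fold changes of 0.79 to 0.93. For Slc8a3 it held without the ipsilateral library of mouse 296, 297, 295, 298 or 300, or mouse 297, 295, 298 or 300, at adjusted p of 0.0531 to 0.126 and log2 fold changes of -1.84 to -1.30. Without the male mouse 296 the Slc8a3 value was -1.30 (adjusted p = 0.0417). For Atp1b2 the call was lost without the ipsilateral library of mouse 296, 297, 298 or 300, or mouse 296, 297, 295, 298 or 300, at adjusted p of 0.0559 to 0.151 and log2 fold changes of 0.84 to 1.16. With only the 2 groups fitted, Slc8b1 passed (adjusted p = 0.0482) and Slc8a3 (0.0601) and Atp1b2 (0.111) did not. The Atp1b2 call was also lost on log2(TPM + 1) (adjusted p = 0.0506). No direction changed in these fits.

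**Figure D3:**
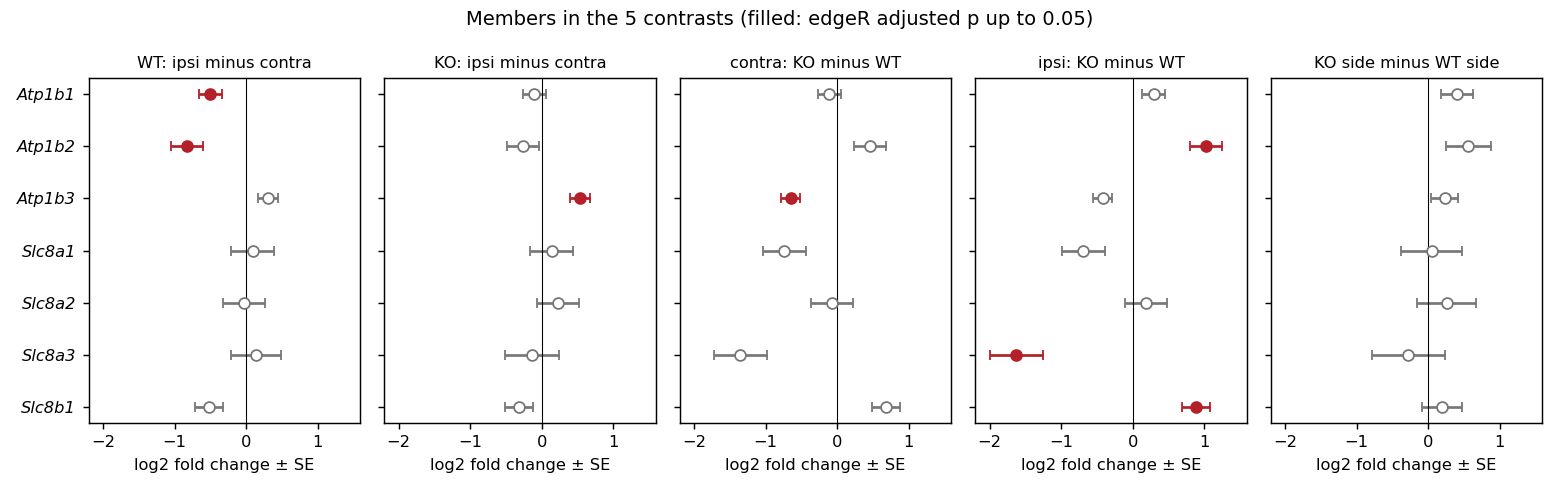
Log2 fold changes (points) ± SE (bars) of the 7 genes in the 5 contrasts between groups, from 1 edgeR fit over 12 libraries, with filled red points where the adjusted p was at most 0.05. Of 35 values 7 passed, none of them in the interaction, and Slc8a3 had the lowest value of each genotype contrast.

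On the contralateral side, away from the occlusion, Atp1b3 was the member that differed between genotypes. It stood at 210, 219 and 254 CPM in WT and 154, 139 and 142 CPM in KO, with no overlap and a log2 fold change of -0.65 ± 0.14 (edgeR, adjusted p = 0.0408). In this comparison 1.50% of all genes passed, 0.0835% higher and 1.41% lower. The groups were apart for 5 of 7 members, with Atp1b2 and Slc8b1 higher and Atp1b3, Slc8a1 and Slc8a3 lower in KO, and for 24.5% of all genes. Slc8a3 stood at 22.9, 13.8 and 11.3 CPM in WT and 7.69, 7.13 and 4.03 CPM in KO, a log2 fold change of -1.35 ± 0.37 (adjusted p = 0.104). Slc8b1 stood at 41.6, 43.5 and 73.3 CPM in WT and 88.0, 86.5 and 81.0 CPM in KO, a log2 fold change of 0.69 ± 0.20 (adjusted p = 0.121). Both were in the same direction as on the ipsilateral side, but neither passed. Slc8a1 stood at 20.6, 33.3 and 16.3 CPM in WT and 15.5, 12.8 and 13.7 CPM in KO, while Slc8a2 stood at 4.35, 4.60 and 4.63 CPM in WT and 3.52, 3.01 and 6.30 CPM in KO. The highest Slc8a2 library of all 12 was thus the KO contralateral one of mouse 300.

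For Slc8b1 the contralateral library of mouse 474 stood apart from the other WT libraries, and without it the log2 fold change was 1.04 (edgeR, adjusted p = 0.0248). Without mouse 474, Slc8b1 (adjusted p = 0.0110) and Slc8a3 (0.0455) both passed, and DESeq2 called both with all libraries (adjusted p = 0.0354 and 0.0138). Slc8b1 passed in 3 and Slc8a3 in 2 of 20 alternative fits, and their adjusted p there reached 0.395 and 0.366. The Atp1b3 call was lost without the contralateral library of mouse 297, 474, 295, 298 or 300, or without any of those mice, at adjusted p of 0.0604 to 0.240 and log2 fold changes of -0.70 to -0.53. It was also lost with only the 2 groups fitted (adjusted p = 0.0541) and on log2(TPM + 1) (0.0712), and without mouse 296 it was -0.70 (adjusted p = 0.0376). The other members gave -0.11 ± 0.16 for Atp1b1, 0.46 ± 0.22 for Atp1b2, -0.74 ± 0.30 for Slc8a1 and -0.08 ± 0.29 for Slc8a2, none passing.

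The genotype comparisons also differed in cell-type markers. On the ipsilateral side 9 of 12 astrocyte markers were higher and 2 of 9 oligodendrocyte markers lower in KO, and on the contralateral side 0 of 12 passed and 4 of 9 were lower. Atp1b2 equalled 13.4 to 15.4% of the astrocyte sum in KO contralateral and 13.3 to 14.5% in KO ipsilateral libraries, inside the span of 12.7 to 17.5% of the WT ipsilateral ones. Slc8b1 equalled 0.247 to 0.337% of that sum in WT contralateral, 0.330 to 0.424% in WT ipsilateral, 0.306 to 0.399% in KO contralateral and 0.267 to 0.386% in KO ipsilateral libraries, ranges that overlapped between the genotypes on both sides. Slc8a3 equalled 0.110 to 0.240% of the oligodendrocyte sum in WT ipsilateral and 0.0261 to 0.107% in KO ipsilateral libraries, which did not overlap, and 0.0801 to 0.188% and 0.101 to 0.151% in the contralateral ones, which did. The KO ipsilateral library of mouse 300 had 20857 CPM of oligodendrocyte markers, more than any of the 6 WT libraries, with 5.44 CPM of Slc8a3, below all of them. By the median over the 9 markers this library, at 9.45 log2 CPM, was close to the other KO ipsilateral libraries (9.41 and 9.42) and below the WT libraries (10.05 to 10.90). Atp1b3 equalled 1.7057 to 1.7982% of the oligodendrocyte sum in WT contralateral and 2.7515 to 3.5503% in KO contralateral libraries, which did not overlap. This percentage was thus higher in KO contralaterally, where Atp1b3 itself was lower. In the ipsilateral libraries it was 2.0495 to 2.9364% in WT and 1.1035 to 3.1338% in KO, which overlapped. Other lists differed as well. The 8 ependymal markers summed to 4521 to 8244 CPM in WT and 1518 to 2781 CPM in KO contralateral libraries, and to 2992 to 6206 and 899 to 1692 CPM in the ipsilateral ones, with 1 of 8 and 2 of 8 passing as lower. The 10 microglial markers summed to 498 to 657 CPM in WT and 826 to 1389 CPM in KO contralateral libraries, with 0 of 10 passing, and the ipsilateral ranges overlapped. The 8 mural markers summed to 660 to 958 CPM in WT and 1067 to 1438 CPM in KO ipsilateral libraries, with 3 of 8 passing as higher. Their contralateral ranges overlapped, with 0 of 8 passing. The part of the cell mixture in the genotype differences was not tested.

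**Figure D4:**
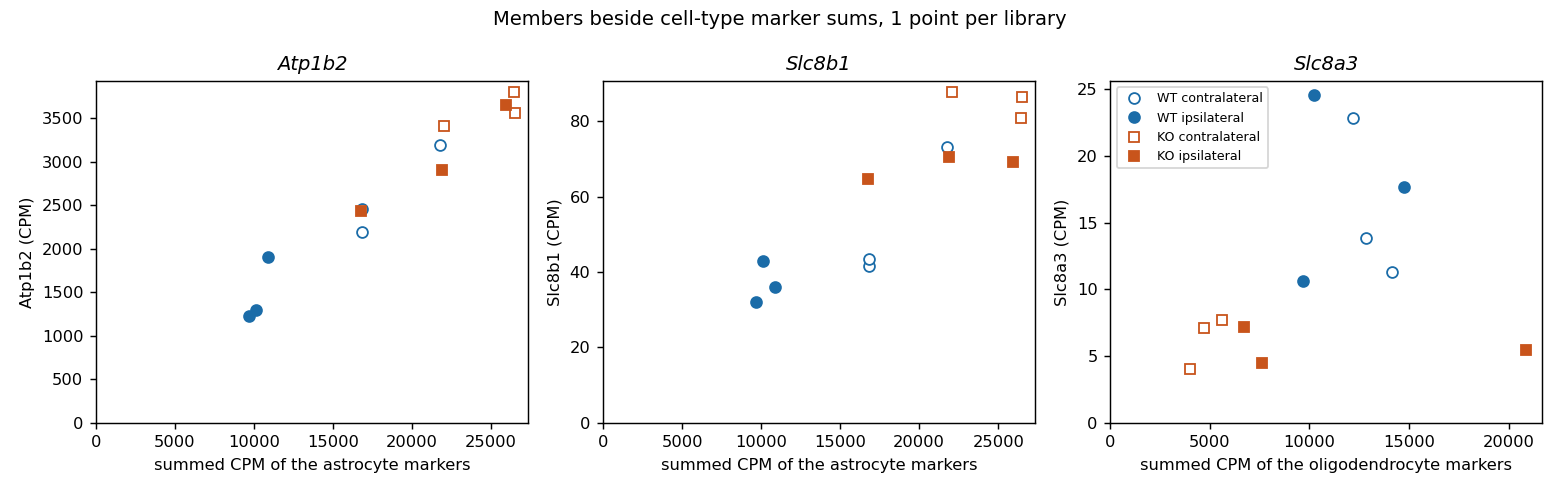
CPM of Atp1b2 and Slc8b1 against the summed CPM of 12 astrocyte markers, and of Slc8a3 against that of 9 oligodendrocyte markers, 1 point per library with open symbols contralateral and filled symbols ipsilateral. Atp1b2 was lowest in the WT ipsilateral libraries, where the astrocyte sum was 9683 to 10893 CPM, and Slc8a3 was below 8 CPM in every KO library, of which 5 of 6 had oligodendrocyte sums of 3997 to 7634 CPM, below every WT library.

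As shares of the summed beta subunit TPM, Atp1b2 held 80.8 ± 0.752% in WT contralateral, 69.0 ± 7.16% in WT ipsilateral, 88.6 ± 1.18% in KO contralateral and 84.1 ± 2.21% in KO ipsilateral libraries. Atp1b3 held 12.2, 23.3, 6.16 and 10.3% in the same order, and Atp1b1 7.01, 7.72, 5.24 and 5.64%. From contralateral to ipsilateral the Atp1b2 share changed by -8.14 ± 5.86 points (SD, n = 6) and the Atp1b3 share by 7.59 ± 4.96 points. All 6 mice moved the same way in each, giving the smallest p that an exact sign-flip test of 6 mice allows (p = 0.0312, two-sided, adjusted 0.15 over 21 share tests). Between genotypes the Atp1b2 share was 7.83 points higher in KO contralaterally and 15.02 points higher ipsilaterally, each with the smallest exact permutation p of 3 against 3 (p = 0.1, two-sided, adjusted 0.15). No share test could pass, since the smallest adjusted p attainable was 0.0938.

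Among the exchangers, Slc8b1 held 55.6 ± 13.7% of the summed TPM in WT contralateral, 45.8 ± 4.65% in WT ipsilateral, 78.4 ± 1.33% in KO contralateral and 73.3 ± 6.25% in KO ipsilateral libraries. Slc8a1 held 29.8, 36.7, 15.2 and 19.2%, Slc8a3 11.5, 13.9, 3.73 and 3.94%, and Slc8a2 3.19, 3.62, 2.62 and 3.57%. The mean share of mitochondrial Slc8b1 was higher in KO than in WT libraries by 22.8 points contralaterally and 27.5 points ipsilaterally (exact permutation p = 0.1 each, two-sided, adjusted 0.15). With Slc8a1 at its exon length, Slc8b1 held 73.7, 66.4, 90.0 and 87.4% and Slc8a1 6.48, 8.35, 2.73 and 3.63%.

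**Figure D5:**
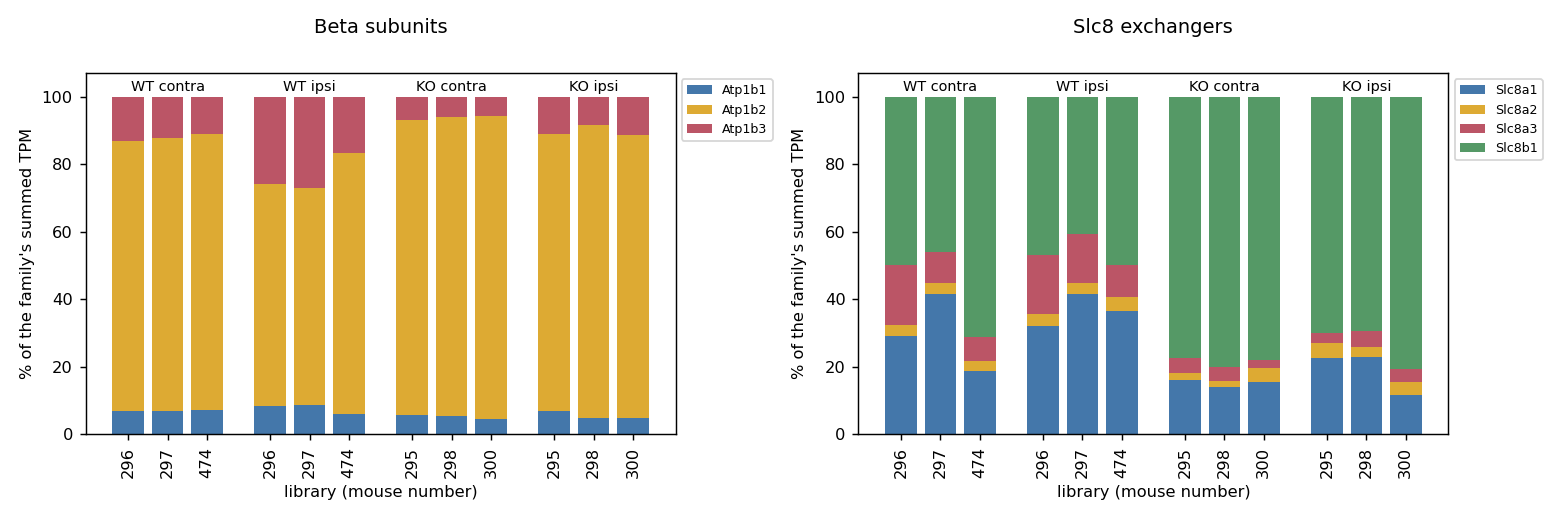
Share of each gene in the summed TPM of its family, in percent, as 1 stacked bar per library, with the beta subunits on the left and the Slc8 exchangers on the right. Atp1b2 took most of the beta subunit TPM in every library, and the Slc8b1 share was 45.8% on average in WT ipsilateral and 73.3% in KO ipsilateral libraries.

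Other genes of sodium and calcium handling were examined as lists. Of 9 tested partners and regulators of the pump, 2 fell on the ipsilateral side of WT mice (Nkain4 and Fxyd1), against 9.54% of all genes. Nkain4 and Fxyd1 were also the 2 that were higher in KO than WT ipsilaterally, against 4.33% of all genes, and 1 gene, Nkain2, was lower in KO contralaterally, against 1.41%. Nkain4, whose protein binds the pump, went from 142 ± 49.6 to 39.1 ± 9.92 CPM in WT mice (log2 fold change -1.86 ± 0.27, edgeR adjusted p = 0.0017). Fxyd1, or phospholemman, which tunes the pump, went from 117 ± 27.7 to 65.95 ± 14.1 CPM (-0.83 ± 0.19, adjusted p = 0.0125). In KO over WT ipsilateral libraries Nkain4 was higher by 1.51 ± 0.27 (adjusted p = 0.0109) and Fxyd1 by 0.80 ± 0.19 (adjusted p = 0.0303). Fxyd5 rose in KO mice from 38.6 ± 8.54 to 87.9 ± 37.5 CPM (1.18 ± 0.28, adjusted p = 0.0306). The low Fxyd4 passed over the 6 mice only, at -1.21 ± 0.32 (adjusted p = 0.0133).

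Of 16 tested sodium-coupled entry routes, 1 rose and 6 fell in WT mice, none passed in KO mice, and 5 were higher and 1 lower in KO over WT ipsilaterally. The shares of all genes were 9.61% higher and 9.54% lower in WT mice, 6.29% in KO mice, and 4.33% higher and 1.98% lower between genotypes ipsilaterally. In KO over WT contralaterally 1 was lower, Slc12a2, against 1.41% of all genes. Slc12a2, which imports sodium, potassium and chloride, was also the 1 lower gene ipsilaterally. Nkain2 and Slc12a2 are named here after their values were seen. Slc6a11, the GABA transporter GAT3, went from 1891 ± 390 to 698 ± 201 CPM in WT mice (log2 fold change -1.44 ± 0.27, edgeR adjusted p = 0.0049). Slc38a3, which carries glutamine, changed by -1.22 ± 0.27 (adjusted p = 0.0094), and Slc1a3, the glutamate transporter GLAST, by -0.91 ± 0.23 (adjusted p = 0.0183). Slc4a7, a sodium-bicarbonate cotransporter, rose by 0.89 ± 0.28 (adjusted p = 0.0448). Slc1a3 is also 1 of the 12 astrocyte markers.

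Of 11 tested calcium pumps and potassium-dependent exchangers, 2 fell in WT mice and 1 was lower in KO on either side, against 9.54% of all genes lower in WT mice and 1.41% and 1.98% lower in KO contralaterally and ipsilaterally. The falls were in Atp2b2, a plasma membrane calcium pump (log2 fold change -1.22 ± 0.28, edgeR adjusted p = 0.0109), and Atp2a3, a calcium pump of the endoplasmic reticulum (-1.15 ± 0.22, adjusted p = 0.0052). Slc24a2, which exchanges sodium for calcium and potassium, was lower in KO, with log2 fold changes of -1.44 ± 0.28 contralaterally (adjusted p = 0.0250) and -1.34 ± 0.28 ipsilaterally (adjusted p = 0.0178). Its means were 222 ± 47.7 CPM in WT contralateral, 273 ± 81.2 in WT ipsilateral, 81.9 ± 11.4 in KO contralateral and 108 ± 40.9 in KO ipsilateral libraries. Slc24a4 passed only over the 6 mice, at -0.95 ± 0.22 (adjusted p = 0.0080).

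Of 13 tested genes of mitochondrial calcium and related carriers, 2 fell in WT mice and 1 was higher in KO ipsilaterally, against 9.54% and 4.33% of all genes, so the list was near the background. Slc25a23, an ATP-magnesium and phosphate carrier, went from 207 ± 11.8 to 121 ± 1.45 CPM in WT mice (log2 fold change -0.78 ± 0.11, edgeR adjusted p = 0.0016) and was higher in KO over WT ipsilaterally by 0.46 ± 0.11 (adjusted p = 0.0337). Mcu, the pore of the mitochondrial calcium uniporter through which calcium enters, changed by -0.46 ± 0.13 in WT mice (adjusted p = 0.0304). Tmem65, a mitochondrial membrane protein, passed over the 6 mice at 0.47 ± 0.12 (adjusted p = 0.0131). No gene of the 4 lists passed in the interaction.

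Over the 12 libraries the genes most like Atp1b2 in log2 CPM were Dlgap1, Asrgl1 and Sfxn1 (Pearson r = 0.987, 0.981 and 0.979), and those most like Slc8b1 were Ctnnd2, Ppp2r2b and Mgll (0.980, 0.962 and 0.961). Atp1b3 was most like Vmp1, Ado and Snx1 (0.977, 0.969 and 0.947), and Slc8a3 most like Txndc16, Tmcc3 and Spock3 (0.961, 0.959 and 0.959). Atp1b1 was most like Rab24, Tcn2 and Haghl (0.928, 0.911 and 0.895), and Slc8a1 most like Hfe, Ppip5k2 and Ncoa3 (0.884, 0.861 and 0.858). Slc8a2 had the weakest likeness, with Filip1l, Mprip and H2-T23 at 0.724, 0.701 and 0.698. Among the members, Atp1b2 and Slc8b1 correlated at 0.881, Atp1b2 and Atp1b3 at -0.783 and Slc8a1 and Slc8b1 at -0.765. These values describe 12 libraries that share mice, groups and cell mixture.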

How the data were processed

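RNA-seq tables of 12 libraries (6 mice, both hemispheres) were used. The deposited expression column holds only whole numbers, here used as counts per gene. The deposited TPM set levels between genes, and the deposited RPKM served only to find the gene length behind the values. Reads were placed on mm10, per the submitters' processing notes. The aligner, the counter and its strand setting were not given in the sources used here.

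Models of these counts were fitted in R 4.3.3 with edgeR 4.0.16 (filterByExpr at a minimum count of 10, TMM, robust quasi-likelihood, 1 term per group over 12 libraries, 8 residual degrees of freedom). Benjamini-Hochberg adjustment ran over 15571 genes, with calls at 0.05. Each SE is approximate and equals the log2 fold change divided by the root of its F statistic. Alternatives used DESeq2 1.42.0, limma 3.58.1 (voom, and trend on log2(TPM + 1) or log2(TPM + 0.1)), RLE and upper-quartile scaling, no filter, the 2 groups compared alone, the mouse as a block, and each library or mouse left out. The procedure was tested on simulated data for the WT side comparison (15455 genes), with independent libraries and the same spread set for every gene. There 55 of 100 genes changed 2-fold and 96 of 100 changed 4-fold were called, so smaller changes can be missed. Far fewer genes were changed there than passed in the data, so these rates need not hold for the data. Shares of a family's TPM were compared by exact permutation tests.

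Libraries of a mouse come from the same animal. After group means were removed, they correlated over 9405 genes at 0.72, -0.04, 0.44, 0.43, 0.58 and 0.22 for mice 296, 297, 474, 295, 298 and 300. Replicates were separate mice.

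The members and lists were chosen with earlier results of these data known. The 7 members were named throughout. From each list up to 4 genes with the smallest adjusted p in any of 6 contrasts were named, and the 3 genes of highest r per member among named protein-coding genes with a mean of at least 4 log2 CPM. Some genes of these lists, and the extent of the deletion, are not reported here. Promoters are from RefSeq.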

Additional observations from a re-analysis of the deposited data

How the results depend on the processing

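The 10 calls on single members kept their direction in all 212 alternative fits and their side of the threshold in 113, of which 49 were among 129 fits that left out a library or a mouse. Of 684 alternative fits of values that did not pass, 14 passed. All 7 genes had counts in each library, and precision is limited by 3 mice per genotype and, for Slc8a2, by levels of 3.01 to 6.30 CPM. Why a call was lost was not tested.

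In WT mice by side 1 member passed, Atp1b1 being lost, with RLE scaling, no filter, limma-voom and both TPM fits (log2(TPM + 1) and log2(TPM + 0.1)), 0 passed with only the 2 groups compared, and 0 to 3 with a library or mouse left out. In KO mice by side 0 passed with upper-quartile scaling, no filter and both TPM fits, and 0 to 1 with a library or mouse left out. Between genotypes contralaterally 0 passed with no filter, only the 2 groups and both TPM fits, 3 passed by DESeq2, and 0 to 2 with a library or mouse left out. Between genotypes ipsilaterally 1 passed with only the 2 groups, Atp1b2 was lost on log2(TPM + 1) (adjusted p = 0.0506), and 0 to 4 with a library or mouse left out. Over the 6 mice by side Slc8b1 was lost with no filter (adjusted p = 0.0538), and 0 to 4 passed with a library or mouse left out. Over all genes, the count of calls differed from the main one by over 1.5 times in several fits. By side in WT, 1579 genes passed with only the 2 groups and 4641 with the mouse as block, against 2982. By side in KO, 1790 passed with only the 2 groups, 2498 with the block, 2009 by DESeq2, and 575 and 538 in the TPM fits, against 979. Between genotypes, contralaterally 653 passed by DESeq2 and 150 and 144 in the TPM fits, against 233, and ipsilaterally 196 with only the 2 groups and 1734 by DESeq2, against 983. With a library or mouse left out, these counts ran from 659 (without mouse 297) to 3610 by side in WT, from 2 (without mouse 295) to 2282 by side in KO, from 0 (without the contralateral library of mouse 298 or 300, or mouse 298) to 391 between genotypes contralaterally, from 0 (without mouse 297) to 1351 ipsilaterally, and from 2812 (without mouse 297) to 5793 over the 6 mice.

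With the mouse as replicate block no member call changed in the side comparisons or the interaction. The genotype comparisons lie between mice and cannot be fitted with that block, so the genotype calls were not checked this way. The Atp1b2 fall in WT mice was then -0.83 (adjusted p = 0.00618), the Atp1b1 fall -0.48 (0.0401), and the Atp1b3 rise in KO mice 0.53 (0.0428). The pairing of mouse 297 rests on its label alone.

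Values that changed sign had not passed in the main test or in the alternative. In the fits of log2(TPM + 1) and log2(TPM + 0.1) these were Slc8a2 by side in WT (0.0084 and 0.0091), Slc8a1 by side in KO (-0.10 and -0.11), Atp1b1 between genotypes contralaterally (0.0411 and 0.0414), the Slc8a1 interaction (-0.29 and -0.31), the Slc8b1 interaction (-0.0678 and -0.065) and Slc8a3 over the 6 mice (-0.036 and -0.0546). The Slc8a1 interaction was -0.0723 with the mouse as block and -0.0398 by limma-voom, and Slc8a3 over the 6 mice was -0.0215 with upper-quartile scaling. With a library or mouse left out, values by side in WT ran from -0.0801 to 0.43 for Slc8a1, -0.15 to 0.0673 for Slc8a2 and -0.16 to 0.49 for Slc8a3. By side in KO they ran from -0.11 to 0.40 for Slc8a1, -0.0404 to 0.62 for Slc8a2 and -0.38 to 0.19 for Slc8a3. Between genotypes contralaterally they ran from -0.23 to 0.13 for Atp1b1 and -0.47 to 0.13 for Slc8a2. The interaction ran from -0.30 to 0.28 for Slc8a1, -0.0068 to 0.655 for Slc8a2, -0.62 to 0.0482 for Slc8a3 and -0.18 to 0.46 for Slc8b1. Over the 6 mice it was -0.008 to 0.29 for Slc8a1, -0.037 to 0.31 for Slc8a2 and -0.14 to 0.18 for Slc8a3.

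As shares of CPM the contralateral genotype difference was 5.47 points for Atp1b2 and -3.91 for Atp1b3, and the ipsilateral one was -14.5 points for Slc8a3. With Slc8a1 at its exon length, an alternative chosen after seeing the data, Slc8a1 differed between genotypes by -3.75 points contralaterally and -4.71 ipsilaterally. On that ipsilateral side Slc8a2 differed by -0.976, Slc8a3 by -15.3 and Slc8b1 by 21.0 points. Of the other share differences under an alternative, 158 moved by less than 1 SD. Among these are the unpaired side tests, which change only the p, so that their differences could not move.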
